A study of Mus musculus with 6 samples.

Results

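Chemokines are small secreted proteins that draw leukocytes along a gradient by binding G protein-coupled receptors, and the 10 chemokine genes described here are those that attract monocytes, macrophages and T cells or, for Cxcl12, retain and position cells in resting tissue. The genes Ccl2, Ccl5, Ccl6, Ccl7, Ccl8, Ccl9, Cxcl9, Cxcl10, Cxcl12 and Cx3cl1 were taken by symbol from a compiled count table of 55401 gene identifiers, and all 10 were listed in it. Of these, 8 passed the filter on low counts and were among the 17222 genes tested, while Ccl5 and Ccl7 were too low to judge. RNA-seq was performed on tibialis anterior (TA) muscle injected with AAV-GFP (n = 3 samples) or AAV-RBM20 (n = 3 samples). All 6 samples were from C57BL/6 mice carrying the inducible, muscle-specific Bmal1 knockout (iMSBmal1, genotype HSA-MCM-Bmal1-/-), which per the study's methods were male. Mice 12 to 16 weeks of age received 5 daily doses of 2 mg tamoxifen to delete Bmal1. Adeno-associated virus (AAV) was injected into the TA 4 weeks after this treatment, and the muscle was taken after a further 4 weeks.

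The groups differed in the vector, which encoded either green fluorescent protein (GFP) or mouse RBM20, a splicing factor of titin. Bmal1, a core clock gene, was deleted in both groups, and no library with intact Bmal1 or without a vector was compared. Cre was driven by the human skeletal actin promoter, so recombination is limited to muscle fibres, whereas the Rbm20 cDNA was driven by the CMV promoter, which is not restricted to a cell type. The promoter of the GFP vector was not given in the sources used here. Per the methods more vector genomes were injected for RBM20 than for GFP, and the dose and the transgene cannot be told apart. Labels do not name the animal behind each sample. For protein gels the study lists opposite legs of some mice in the GFP and RBM20 arms, and whether RNA-seq samples of the groups came from the same mice is not stated. The p-values therefore measure the spread between these samples. In whole muscle, more cells of a type and more RNA per cell cannot be told apart either.

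In muscle, resident macrophages, endothelial cells and fibro-adipogenic progenitors are known sources of chemokines. Ccl2 and Ccl7 signal mainly through Ccr2 and recruit monocytes, Ccl8 is a related monocyte chemoattractant protein that acts on Ccr8 in mice, Ccl5 acts through Ccr1 and Ccr3 among others, and Ccl6 and Ccl9 are rodent ligands of Ccr1. Cxcl9 and Cxcl10 are induced by interferon-gamma and attract activated T cells and natural killer cells through Cxcr3. Cxcl12 is made constitutively by stromal and endothelial cells and binds Cxcr4, and Cx3cl1 (fractalkine) is a membrane-anchored chemokine whose receptor Cx3cr1 marks monocytes and macrophages.

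The members lie in a few gene clusters, so the bases in front of neighbouring genes are shown for comparison. Coordinates refer to GRCm38 (mm10) throughout. Ccl2 (chr11:82035571-82037453), Ccl7 (chr11:82045712-82047525) and Ccl8 (chr11:82115185-82116799) lie together on the plus strand. Ccl5 (chr11:83525778-83530518), Ccl9 (chr11:83572919-83578636) and Ccl6 (chr11:83587882-83593087) lie together on the minus strand of the same chromosome. Cxcl9 (chr5:92321347-92328079) and Cxcl10 (chr5:92346638-92348889) are neighbours on the minus strand of chromosome 5. Cxcl12 (chr6:117168535-117181367) and Cx3cl1 (chr8:94772009-94782427) lie outside these clusters on the plus strand. RefSeq promoters on GRCm38.p6 were matched for 7 of the 10 genes, leaving Ccl2, Ccl5 and Ccl7 without one. The 250 bases before the start were searched on both strands for the interferon-stimulated response element (ISRE, GAAANNGAAA), the gamma-activated site (GAS, TTCNNNGAA) and the NF-kappaB consensus. Of 32851 promoter windows of this length, 2.98% held the ISRE letters, 7.02% the GAS letters and 5.00% the NF-kappaB consensus. Below, capitals mark matches, and each sequence reads 5′ to 3′ on the minus strand up to the base before the start.

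The Cxcl10 window (chr5:92348890-92349139) held an ISRE match from base -213 to -204 and 2 overlapping NF-kappaB matches from base -104 to -94, counted from the start. No match to the 3 motifs was in the window of its neighbour Cxcl9 (chr5:92328080-92328329). Ccl9 (chr11:83578637-83578886) held an NF-kappaB match from base -35 to -26, and its neighbour Ccl6 (chr11:83593088-83593337) held none.
Cxcl10: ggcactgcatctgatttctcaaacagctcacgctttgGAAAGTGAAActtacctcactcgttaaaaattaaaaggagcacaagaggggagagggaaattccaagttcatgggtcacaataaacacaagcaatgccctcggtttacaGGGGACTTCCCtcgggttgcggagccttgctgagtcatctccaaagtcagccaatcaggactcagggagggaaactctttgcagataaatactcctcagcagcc
Cxcl9: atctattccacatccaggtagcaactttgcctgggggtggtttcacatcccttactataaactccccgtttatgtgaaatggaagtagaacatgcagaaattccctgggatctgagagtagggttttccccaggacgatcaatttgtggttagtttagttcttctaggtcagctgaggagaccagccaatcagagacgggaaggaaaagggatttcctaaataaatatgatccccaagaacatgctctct
Ccl9: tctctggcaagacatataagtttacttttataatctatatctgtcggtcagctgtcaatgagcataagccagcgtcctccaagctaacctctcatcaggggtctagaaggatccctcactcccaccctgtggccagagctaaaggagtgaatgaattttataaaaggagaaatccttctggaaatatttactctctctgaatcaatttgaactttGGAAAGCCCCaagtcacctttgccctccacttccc
Ccl6: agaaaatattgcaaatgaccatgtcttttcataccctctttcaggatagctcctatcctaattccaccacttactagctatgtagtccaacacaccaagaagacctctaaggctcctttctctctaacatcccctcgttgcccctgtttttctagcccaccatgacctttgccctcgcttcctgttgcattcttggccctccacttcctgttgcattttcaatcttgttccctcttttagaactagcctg
No match was in the windows of Ccl8 and Cxcl12. The RefSeq start of Cx3cl1 lies inside the gene span given above, so its window, also without a match, does not precede that span. A match describes letters in this window and is not a measured binding site.

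Cxcl12 was the most abundant of the 10 chemokine transcripts in both groups. Levels of different genes were compared as CPM (counts scaled to a common library size) per kilobase of exon. On that scale Cxcl12 averaged 10.2 ± 2.85 in AAV-GFP and 9.75 ± 0.680 in AAV-RBM20 (SD, n = 3), and its lowest library (7.02) was above the highest library of any other member (5.37, Cxcl9). Cxcl14, a homeostatic chemokine outside the 10 and named after its values were seen, was higher still, averaging 22.2 CPM per kilobase in AAV-GFP and 20.6 in AAV-RBM20. Ccl6 followed with a mean of 1.37 over the 6 libraries, then Cxcl9 at 1.23, Ccl8 at 0.891, Ccl9 at 0.625, Cx3cl1 at 0.602, Ccl5 at 0.596, Ccl2 at 0.314, Ccl7 at 0.247 and Cxcl10 at 0.211. From Ccl6 downward each gene overlapped the next in its range over libraries, so these neighbours did not differ beyond their spread. Between groups, Cxcl9 stood at rank 5 in AAV-GFP and rank 2 in AAV-RBM20, and Cx3cl1 at rank 3 and rank 7. The rank of Cxcl9 in AAV-RBM20 rested on replicate 3 (5.37 CPM per kilobase), as replicates 1 and 2 (0.359 and 0.445) lay below Ccl6 (1.34 and 1.04) and Ccl9 (0.632 and 0.515) in the same libraries. Cxcl12 made up 84.6% to 95.4% of the summed CPM of the 10 genes in AAV-GFP and 67.4% to 90.7% in AAV-RBM20.

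Libraries numbered 3 stood apart in both groups. Total counts ranged from 41400132 to 54226618. Ttn took 16.9% to 17.8% of counts in replicates 1 and 2 of either group, 4.48% in AAV-GFP replicate 3 and 9.05% in AAV-RBM20 replicate 3, and mitochondrially encoded genes took 6.41% to 7.66%, 12.5% and 11.4%. Rbm20 itself averaged 166 ± 3.20 CPM in AAV-GFP and 484 ± 71.0 CPM in AAV-RBM20 (SD, n = 3). Its log2 fold change was 1.54 (edgeR adjusted p = 0.121), so the planned fit did not call even the delivered gene. An absence of calls in this fit is therefore not evidence of no change. Because the chemokines follow the split of the libraries numbered 3 as well, their values are given for each library.

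**Figure D1:**
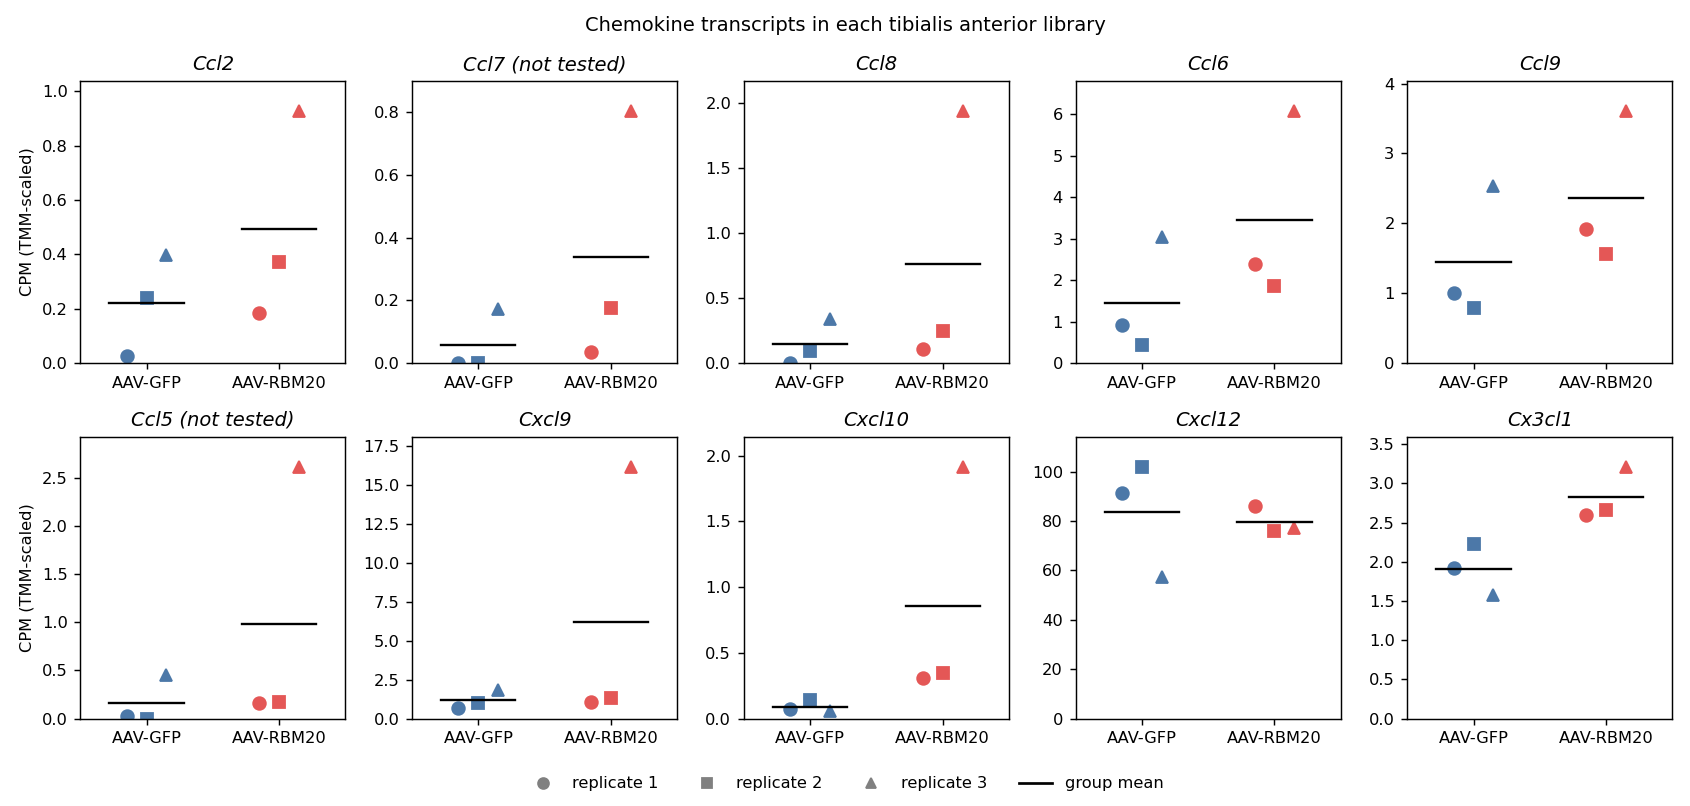
CPM of each of the 10 chemokine genes in the 3 AAV-GFP (blue) and 3 AAV-RBM20 (red) libraries, with TMM-scaled library sizes. Circles, squares and triangles are replicates 1, 2 and 3, the line is the group mean, and each panel has its own linear axis from 0. AAV-RBM20 replicate 3 was the highest library for 9 of the 10 genes, all but Cxcl12.

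No chemokine passed the threshold of an adjusted p of 0.05 in the quasi-likelihood test of edgeR, nor did any of the 17222 genes (0%). Of the 8 tested members, 7 had a positive log2 fold change (AAV-RBM20 over AAV-GFP), beside 51.3% of all genes tested. Their median log2 fold change was 1.17 against 0.01 over all genes. At an unadjusted p under 0.05, 2 members were higher in AAV-RBM20 (Cxcl10 and Cx3cl1), beside 4.08% of all genes, and none was lower, beside 3.82%. Group ranges of CPM did not overlap for the same 2 members, with AAV-RBM20 higher. Cxcl10 was tested only because it was high in AAV-RBM20, since no AAV-GFP library reached the low-count filter, so it had to differ and adds nothing to these counts. Non-overlap in that direction was seen in 7.71% of genes tested, and in the other direction, where no member fell, in 9.04%. AAV-RBM20 was higher in each of the 3 pairs of libraries with the same number in the titles for 7 of 8 tested members (9 of all 10), beside 22.2% of genes tested.

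**Figure D2:**
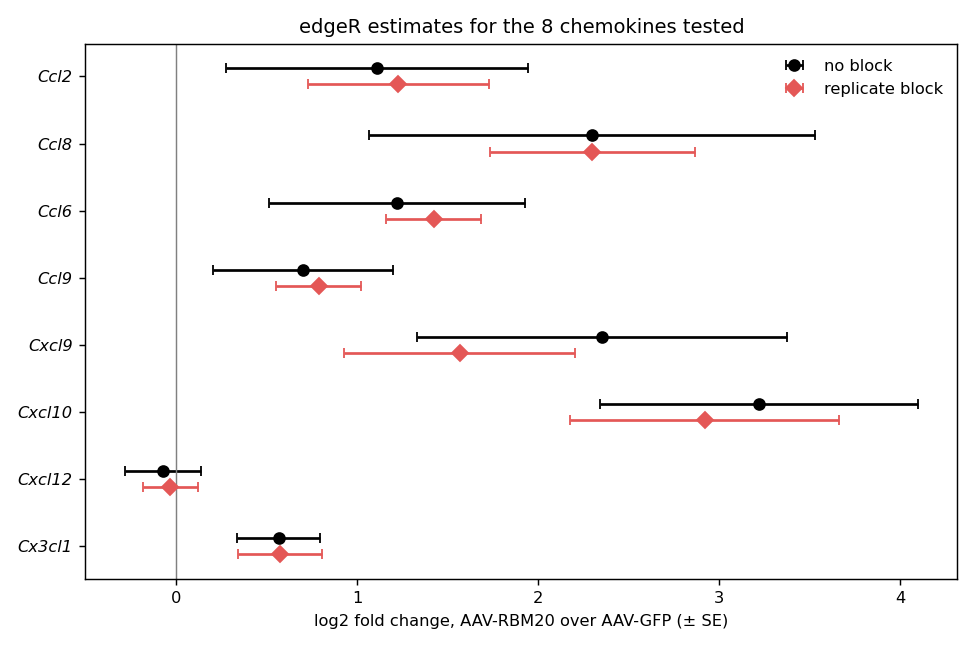
Log2 fold change of AAV-RBM20 over AAV-GFP for the 8 tested chemokines, with its standard error as bars, from edgeR without (black circles) and with (red diamonds) the replicate number as a block. Estimates were positive for all but Cxcl12, and the bars of all but Cx3cl1 were shorter with the block.

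The monocyte chemoattractant proteins Ccl2, Ccl7 and Ccl8 rested on few counts. Ccl2, the principal monocyte chemoattractant, had 1, 10 and 21 counts in AAV-GFP replicates 1, 2 and 3 and 10, 15 and 45 counts in AAV-RBM20 replicates 1, 2 and 3. These correspond to 0.0246, 0.240 and 0.399 CPM and to 0.183, 0.373 and 0.927 CPM. Group ranges overlapped, and the log2 fold change of Ccl2 was 1.11 ± 0.832 (SE, edgeR adjusted p = 0.708). Ccl8 had 0, 4 and 18 counts in AAV-GFP replicates 1, 2 and 3 and 6, 10 and 94 counts in the AAV-RBM20 libraries. Its highest AAV-GFP library (0.342 CPM) was above the AAV-RBM20 libraries at 0.110 and 0.249 CPM, and the log2 fold change was 2.30 ± 1.23 (edgeR adjusted p = 0.657). Ccl7 had 0, 0 and 9 counts in AAV-GFP and 2, 7 and 39 counts in AAV-RBM20, and only the last library reached 10 counts. A count of 0 allows up to 3 counts, or 0.0738 CPM in AAV-GFP replicate 1 and 0.0719 CPM in AAV-GFP replicate 2. Ccl2, Ccl7 and Ccl8 were highest in replicate 3 of their own group in both groups.

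Ccl6 and Ccl9, which tissue macrophages express at rest, were measured with more counts. Ccl6 had 37, 18 and 160 counts (0.910, 0.431 and 3.04 CPM) in AAV-GFP and 131, 75 and 295 counts (2.40, 1.87 and 6.07 CPM) in AAV-RBM20. Replicates 1 and 2 of AAV-GFP lay below every AAV-RBM20 library, while AAV-GFP replicate 3 lay between the AAV-RBM20 libraries. The log2 fold change of Ccl6 was 1.22 ± 0.706 (SE, edgeR adjusted p = 0.658). Ccl9 had the same order of libraries, with 1.01, 0.791 and 2.53 CPM in AAV-GFP and 1.92, 1.57 and 3.60 CPM in AAV-RBM20, and a log2 fold change of 0.70 ± 0.497 (edgeR adjusted p = 0.697). Within pairs, the log2 ratio of AAV-RBM20 to AAV-GFP was 1.40, 2.11 and 1.00 for Ccl6 and 0.93, 0.99 and 0.51 for Ccl9.

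Same-numbered libraries deviated together over all genes, so the fit was repeated with that number as a block. This moved the number of members at an unadjusted p under 0.05 from 2 to 6, all higher in AAV-RBM20, beside 8.92% of all genes. The 6 were Ccl2, Ccl6, Ccl8, Ccl9, Cxcl10 and Cx3cl1. Cxcl10 again adds nothing to the count, since it passed the low-count filter through AAV-RBM20 alone. No member passed the adjusted threshold with the block, beside 0.0871% of all genes in that direction. Ccl6 came closest, with a log2 fold change of 1.42 ± 0.261 (SE) and an edgeR adjusted p of 0.0863 with the block. Ccl6 passed in DESeq2 with the same block (adjusted p = 0.00313), where 1.27% of genes with an adjusted p were called higher. It also passed in edgeR when both libraries numbered 3 were left out (log2 fold change 1.68, adjusted p = 0.0286), where 1.95% of genes were called higher.

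A single control library set most of the overlap between groups. Without AAV-GFP replicate 3, ranges did not overlap for Ccl5, Ccl6, Ccl7, Ccl8, Ccl9, Cxcl9, Cxcl10 and Cx3cl1, with AAV-RBM20 higher, which is 6 of 8 tested members beside 16.4% of genes tested. Without both libraries numbered 3 the same 8 of the 10 genes did not overlap, of which 5 were among the 7 then tested, beside 25.7% of genes. Cxcl10 in both settings, and Ccl8 in the first, passed the low-count filter only through AAV-RBM20 libraries, so they add nothing to these counts. For most members AAV-GFP replicate 3 was the library that overlapped, so the first setting, which keeps AAV-RBM20 replicate 3, favours separation. In both settings Cxcl12 was lower in AAV-RBM20 without overlap, and Ccl2 overlapped. Without AAV-RBM20 replicate 3 in place of the control library, Cxcl10 and Cx3cl1 alone did not overlap, with no share of all genes to set beside them. Cxcl10 adds nothing here either, for the same reason. In that setting the log2 fold changes of Ccl2, Ccl6, Ccl8 and Ccl9 were 0.28, 0.54, 0.20 and 0.28, beside 1.87, 2.36, 3.91 and 1.39 without AAV-GFP replicate 3.

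**Figure D3:**
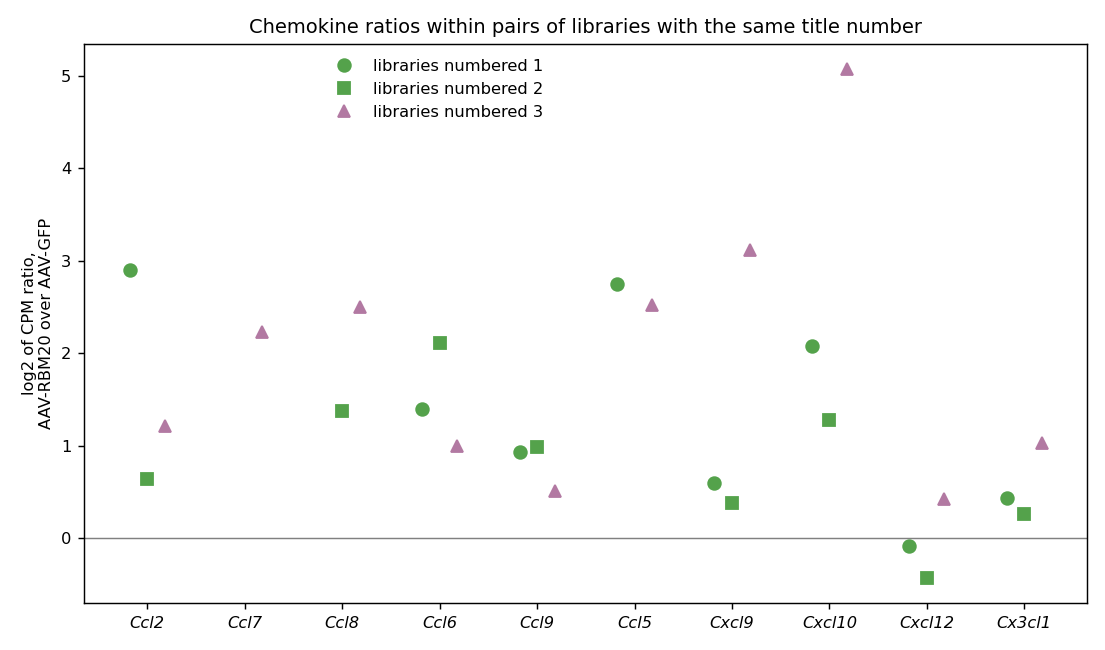
Log2 of the CPM ratio of AAV-RBM20 to AAV-GFP within each pair of libraries that share a number in the titles, for the 10 chemokines. Points are missing where the AAV-GFP library had 0 counts. The pair numbered 3 (purple triangles) gave the largest ratio for Cxcl9, Cxcl10, Cxcl12 and Cx3cl1 and the smallest for Ccl6 and Ccl9. Among the points shown it was also the largest for Ccl8 and the smallest for Ccl5. For Cxcl12, 2 of 3 pairs were below 0.

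For the T cell attractants most counts of the AAV-RBM20 group came from AAV-RBM20 replicate 3. Ccl5, which activated T cells and natural killer cells also secrete, had 1, 0 and 24 counts in AAV-GFP and 9, 7 and 127 counts in AAV-RBM20, so 2 of 6 libraries reached 10 counts and no fold change is given. Cxcl9 had 29, 43 and 98 counts (0.713, 1.03 and 1.86 CPM) in AAV-GFP and 59, 54 and 786 counts (1.08, 1.34 and 16.2 CPM) in AAV-RBM20. AAV-RBM20 replicate 3 was 13.3 times the mean of replicates 1 and 2 of its group, and those replicates lay inside the AAV-GFP range. For Cxcl9 the log2 fold change was 2.35 ± 1.02 (SE, edgeR adjusted p = 0.635), and it was 0.0098 without AAV-RBM20 replicate 3 and 0.47 without both libraries numbered 3.

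Cxcl10, the ligand of Cxcr3 that many cell types make in response to interferons, had 3, 6 and 3 counts (0.0738, 0.144 and 0.0570 CPM) in AAV-GFP. In AAV-RBM20 it had 17, 14 and 93 counts (0.312, 0.348 and 1.91 CPM). Each AAV-RBM20 library was above each AAV-GFP library, and the log2 fold change was 3.22 ± 0.876 (SE, edgeR adjusted p = 0.618). The exact permutation test gave p = 0.1, the smallest that 3 against 3 samples allow. This p adds nothing, because the filter admitted Cxcl10 through its AAV-RBM20 libraries alone. DESeq2 called Cxcl10 higher (adjusted p = 0.0435), beside 0.199% of genes with an adjusted p. Passing the low-count filter through the 3 AAV-RBM20 libraries alone was seen for 0.453% of genes tested. With no filter beyond 1 count its log2 fold change was 3.21 (edgeR adjusted p = 0.499), and without AAV-RBM20 replicate 3 it was 1.85. Art3 on the opposite strand shares 133 of the 2252 exon bases of Cxcl10. Art3 averaged 130 CPM in AAV-GFP and 110 CPM in AAV-RBM20, and the strand setting of the counting was not given in the sources used here, so Cxcl10 counts are uncertain.

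Both ligands of Cxcr3 were thus highest in the same library, whereas Cxcl10 did not follow the number 3 in AAV-GFP. AAV-GFP replicate 3 held 0.524 times the mean Cxcl10 level of AAV-GFP replicates 1 and 2, beside 2.14 times for Cxcl9, 4.53 times for Ccl6 and 7.14 times for Ccl8. Cxcl11, another Cxcr3 ligand named here after its values were seen, averaged 0.612 CPM in AAV-GFP and 0.704 CPM in AAV-RBM20 (log2 fold change 0.21, edgeR adjusted p = 0.930).

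Cxcl12, with 3022 to 4696 counts per library, was the most precisely measured member. Its level was 91.6, 102 and 57.4 CPM in AAV-GFP and 86.1, 76.0 and 77.1 CPM in AAV-RBM20. AAV-RBM20 libraries all lay inside the AAV-GFP range, and the log2 fold change was -0.07 ± 0.210 (SE, edgeR adjusted p = 0.935). The sign depended on a single control library, with a log2 fold change of 0.094 when AAV-GFP replicate 2 was left out and of -0.28 when AAV-GFP replicate 3 was left out. Endothelial markers were also lowest in AAV-GFP replicate 3. Their 7 genes summed to 185 to 433 CPM in AAV-GFP and 290 to 410 CPM in AAV-RBM20, and their part in the Cxcl12 values was not tested.

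Cx3cl1 varied little within groups. It had 78, 93 and 83 counts (1.92, 2.23 and 1.58 CPM) in AAV-GFP and 142, 107 and 156 counts (2.60, 2.66 and 3.21 CPM) in AAV-RBM20. The groups did not overlap, and the log2 fold change of Cx3cl1 was 0.57 ± 0.228 (SE, edgeR adjusted p = 0.618), with an exact permutation p of 0.1. Over all alternatives it ranged from 0.35 to 0.72. Unlike most members, Cx3cl1 was not highest in the libraries numbered 3 of both groups, as AAV-GFP replicate 3 was its lowest library.

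In a list of 7 receptors of these ligands, which did not hold Ccr8, all 6 tested had positive log2 fold changes, with a median of 1.02, and none passed the adjusted threshold or an unadjusted p of 0.05. Ccr2, the receptor that draws monocytes from blood to tissue, measured 1.55, 1.34 and 5.36 CPM in AAV-GFP and 4.80, 3.93 and 14.0 CPM in AAV-RBM20. Ranges overlapped through AAV-GFP replicate 3, as for Ccl6 and Ccl9, and the log2 fold change of Ccr2 was 1.45 ± 0.647 (SE, edgeR adjusted p = 0.641). With the replicate block the edgeR adjusted p of Ccr2 was 0.0251, and without both libraries numbered 3 it was 0.00327. The log2 fold change of Ccr2 was 0.67 (edgeR adjusted p = 0.772) without AAV-RBM20 replicate 3 and 2.39 (edgeR adjusted p = 0.317) without AAV-GFP replicate 3. Log2 fold changes were 1.00 for Ccr1, which had 4 to 16 counts in AAV-GFP and 8 to 30 in AAV-RBM20, and 1.04 for Cx3cr1 (edgeR adjusted p = 0.693 and 0.647). The same omissions gave 0.28 and 1.80 for Ccr1 and 0.55 and 1.54 for Cx3cr1. Ccr3 had at most 3 counts and was not tested.

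The receptors of the T cell and stromal ligands differed less. Cxcr3 had 0, 8 and 22 counts in AAV-GFP and 6, 11 and 26 counts in AAV-RBM20, with a log2 fold change of 0.53 ± 0.954 (SE, edgeR adjusted p = 0.880) that turned to -0.02 without AAV-GFP replicate 1. Cxcr4 measured 2.15 to 4.38 CPM in AAV-GFP and 3.81 to 4.93 CPM in AAV-RBM20 (log2 fold change 0.35, edgeR adjusted p = 0.717). Among the atypical receptors, which bind chemokines without classical signalling, Ackr3, the scavenger of Cxcl12, measured 9.63 to 12.3 CPM in AAV-GFP and 12.7 to 14.1 CPM in AAV-RBM20 without overlap (log2 fold change 0.26 ± 0.141, edgeR adjusted p = 0.657). Ackr1 of venular endothelium and red cells measured 0.910 to 0.969 CPM in AAV-GFP and 0.323 to 0.906 CPM in AAV-RBM20, also without overlap (log2 fold change -0.45 ± 0.402, edgeR adjusted p = 0.744). Ackr2 and Ccrl2 had log2 fold changes of 0.66 and -0.25 (edgeR adjusted p = 0.710 and 0.657), and Ackr4 was not tested. Of 11 other chemokine receptors Cxcr6 alone was tested (log2 fold change 1.72, edgeR adjusted p = 0.657), and Ccr8, the receptor of Ccl8, named after its values were seen, had 0 counts in AAV-GFP and 6 in AAV-RBM20.

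Of 27 other chemokines, 10 were tested, with a median log2 fold change of -0.08, and 5 had no count in any library. Cxcl16, a transmembrane chemokine that binds Cxcr6, was the single gene of this list at an unadjusted p under 0.05. It measured 0.787, 1.27 and 2.22 CPM in AAV-GFP and 2.80, 2.31 and 6.14 CPM in AAV-RBM20, with every AAV-RBM20 library above every AAV-GFP library (log2 fold change 1.38 ± 0.480, edgeR adjusted p = 0.618). Ccl28 and Ccl27a had log2 fold changes of -0.88 and 0.26 (edgeR adjusted p = 0.642 and 0.723).

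Genes that induce or process chemokines had smaller median differences than the members. In the list of 14 cytokines 7 were tested, with a median log2 fold change of 0.05, and 2 were higher at an unadjusted p under 0.05. Tgfb1 averaged 5.35 ± 0.931 CPM in AAV-GFP and 8.32 ± 0.721 CPM in AAV-RBM20 (SD, n = 3, edgeR adjusted p = 0.618), and Il15, which sustains T and natural killer cells, averaged 4.44 ± 0.842 and 6.51 ± 0.791 CPM (edgeR adjusted p = 0.618). Il12a had a log2 fold change of -0.37 (edgeR adjusted p = 0.804). All 16 NF-kappaB genes were tested, with a median log2 fold change of 0.07, and 1 gene was at an unadjusted p under 0.05 in each direction. Nfkb2 stood at 0.40, Nfkbib, an inhibitor, at -0.30 and Nfkbie, also an inhibitor, at 0.67 (edgeR adjusted p = 0.618, 0.618 and 0.654). Of 14 interferon signalling genes, all tested, none was at an unadjusted p under 0.05, and the median was 0.22. Irf1 measured 7.11 to 10.5 CPM in 5 libraries and 21.4 CPM in AAV-RBM20 replicate 3, and its log2 fold change was 0.68 (edgeR adjusted p = 0.642). Jak1 and Ifngr2 had log2 fold changes of -0.28 and -0.30 (edgeR adjusted p = 0.632 and 0.654). Among 13 genes that process or present chemokines 12 were tested, with a median of 0.12. At an unadjusted p under 0.05 Mmp14, a membrane protease, was higher (0.45, edgeR adjusted p = 0.618) and Sdc4, a heparan sulphate carrier, was lower (-0.33, edgeR adjusted p = 0.618). Mmp12 of macrophages stood at 2.06 (edgeR adjusted p = 0.641).

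**Figure D4:**
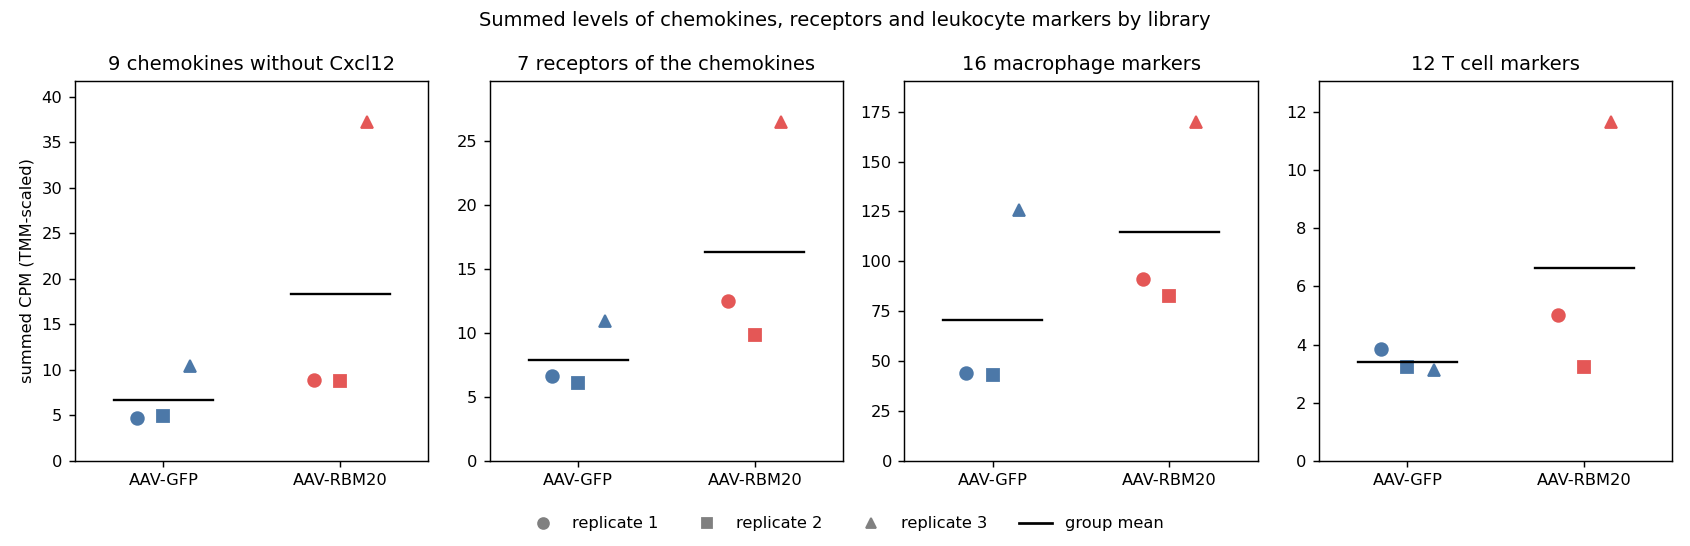
Summed CPM per library of the 9 chemokines other than Cxcl12, of the 7 listed receptors, and of the 16 macrophage and 12 T cell markers. The receptors include Cxcr4, the receptor of Cxcl12, and lack Ccr8. Symbols are replicates 1, 2 and 3, the line is the group mean, and axes are linear from 0. The chemokine sum was 4.67, 4.96 and 10.4 CPM in AAV-GFP and 8.82, 8.76 and 37.3 CPM in AAV-RBM20, and the macrophage sum had AAV-GFP replicate 3 above AAV-RBM20 replicates 1 and 2.

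Macrophage markers had the library order of Ccl6 and Ccl9, whereas T cell markers were high in AAV-RBM20 replicate 3 but not in AAV-GFP replicate 3. No gene of any marker list passed the adjusted threshold. The 16 macrophage markers summed to 43.8, 42.9 and 126 CPM in AAV-GFP and 91.2, 82.6 and 170 CPM in AAV-RBM20. Of 15 tested macrophage markers 14 had a positive log2 fold change, with a median of 0.71, and 2 were at an unadjusted p under 0.05, Itgam (1.68) and Fcer1g (0.71), each with an edgeR adjusted p of 0.618. Fcgr1 stood at 1.16 (edgeR adjusted p = 0.642). The 12 T cell markers summed to 3.12 to 3.84 CPM in AAV-GFP and to 5.02, 3.23 and 11.7 CPM in AAV-RBM20, so AAV-RBM20 replicate 3 was again the highest, as for Cxcl9, Cxcl10 and Ccl5. In AAV-GFP replicate 3 the T cell sum was 0.884 times the mean of replicates 1 and 2, beside 2.14 times for Cxcl9, and the endothelial sum was 0.457 times. Of the T cell markers 4 were tested, among them Cd4 (1.77), Trac (1.71) and Cd2 (0.65), with edgeR adjusted p of 0.654, 0.641 and 0.788. The 7 natural killer markers summed to 0.264 to 0.684 CPM in AAV-GFP and 0.323 to 2.16 CPM in AAV-RBM20, and none was tested. The part of these cells in the chemokine values was not tested.

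Other leukocyte and tissue lists had smaller or opposite differences. Of 6 dendritic cell markers 5 were tested, 3 higher and 2 lower, with a median log2 fold change of 0.20 and a lowest of -0.53. The 3 higher were Itgax at 1.37, Clec9a at 1.45 and Zbtb46 at 0.20 (edgeR adjusted p = 0.626, 0.641 and 0.699). B cell markers summed to 90.6 to 145 CPM in AAV-GFP and 35.9 to 74.7 CPM in AAV-RBM20, mostly Ighm (log2 fold change -1.12, edgeR adjusted p = 0.618, and 0.0251 with the replicate block). Of the 3 tested B cell markers Ighm alone was lower, and 2 were higher, with log2 fold changes of at most 0.31. The 7 neutrophil markers summed to 0.743 to 1.86 CPM and 0.622 to 1.98 CPM, and the defining gene Ly6g had no count in any library. Fibro-adipogenic progenitor and fibroblast markers summed to 547 to 1119 CPM in AAV-GFP and 915 to 1167 CPM in AAV-RBM20, with Col1a1 at 0.74 (edgeR adjusted p = 0.618). Muscle fibre markers, with the highest sums of any marker list, summed to 90686 to 99230 CPM in AAV-GFP and 59436 to 87139 CPM in AAV-RBM20. The erythroid sum, a measure of blood, was 4.06 to 10.6 CPM in AAV-GFP and 2.69 to 27.3 CPM in AAV-RBM20, with AAV-RBM20 replicate 3 highest, and its part was not tested. Over all genes tested, AAV-RBM20 replicate 3 was the highest library in 16.5%, beside 7 of the 8 tested chemokines.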

How the data were processed

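Ribosomal RNA-depleted, stranded libraries from whole TA muscle were sequenced, and the authors used HISAT2 with mm10 for mapping and HTSeq for counting. Their deposited counts are unnormalised whole numbers per Ensembl gene, and a second table of counts divided by DESeq2 size factors was not used here. Tool versions, the annotation release and the strand setting were not given in the sources used here. Ensembl identifiers were given symbols from GENCODE M21 (55141 of 55401 matched).

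Groups were compared with edgeR 4.0.16 in R 4.3.3 (filterByExpr, TMM, robust glmQLFit, glmQLFTest) with no covariate, and p-values of the 17222 genes tested were adjusted by Benjamini-Hochberg (threshold 0.05). CPM used TMM-scaled library sizes. The SE is the size of the log2 fold change over the square root of F. Low-count precision is limited by counting error, which the limits for a count of 0 cover alone. The fit was tested on simulated data with 200 genes changed and a dispersion of 0.02. That simulation held no outlying libraries and no pairing, so its outcome does not carry over to the spread seen here. Counts of replicates differed by more than sampling noise (chi-square per degree of freedom 15.1 to 545), so no sample was counted as a copy.

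The titles number the samples of each group 1 to 3, whereas the descriptions number AAV-RBM20 on from AAV-GFP. Deviations from group means correlated at 0.42, 0.20 and 0.48 for samples numbered 1, 2 and 3, each over the minimum of 0.1. Samples were therefore paired by number in the blocked fits and in the comparisons within pairs. The planned fit and its p-values ignore this pairing. Differently numbered libraries reached 0.22 at most, above the 0.20 of number 2, so numbers 1 and 2 are separated weakly. Blocked values rest on this pairing, whose meaning the labels leave unstated.

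Named genes were the 10 chemokines, Rbm20, the tested receptors and atypical receptors, and up to 3 genes with the lowest p from every other list. Some genes under this rule are not reported here. The members and lists were chosen with earlier results of these data known. Alternatives were other scaling factors, filters, DESeq2 1.42.0, limma-voom 3.58.1, the replicate block, and leaving out libraries.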

Additional observations from a re-analysis of the deposited data

How the results depend on the processing

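No chemokine passed the adjusted threshold in the planned fit, and the few calls made elsewhere depended on the tool and on the libraries numbered 3. Over all genes the count past the threshold was 0 in the planned fit, 8 without a filter, 25 with the replicate block, 72 in DESeq2, 514 in DESeq2 with the replicate block and 690 without both libraries numbered 3, and it was 0 whichever library was left out. Of the chemokines, 1 passed in DESeq2 (Cxcl10), 1 in DESeq2 with the replicate block (Ccl6) and 1 without both libraries numbered 3 (Ccl6). The number at an unadjusted p under 0.05 was 2 in the planned fit, where 7.90% of all genes tested were, in either direction. It was 1 without a filter (5.83% of genes), with a filter of 1 CPM in 3 libraries (8.35%), and without both libraries numbered 1 (1.97%) or both numbered 2 (3.69%). It was 4 in DESeq2 (4.97%), and 6 with the replicate block in edgeR (18.8%) and in DESeq2 (8.07%). The 6 in DESeq2 with the block held Ccl5 and Ccl7, which were too low to judge, and not Ccl2 and Cx3cl1. Without both libraries numbered 3 the number at an unadjusted p under 0.05 was 4 (18.5%), with 3 higher and 1 lower, Cxcl12. It was 1 to 4 with any library left out, with 4 (3 higher and 1 lower) when AAV-GFP replicate 3 was left out (11.4%) and 1 when AAV-GFP replicate 1 (5.99%) or AAV-RBM20 replicate 3 (5.83%) was left out. Ranges did not overlap for 2 members in the planned fit, both higher, beside 7.71% of genes tested. Without AAV-GFP replicate 3, and without both libraries numbered 3, the number was 9, with 8 higher and 1 lower, Cxcl12. Of the tested members 6 of 8 and 5 of 7 were higher in these settings, beside 16.4% and 25.7% of genes. Cxcl10 in these settings and in the planned fit, and Ccl8 without AAV-GFP replicate 3, passed the low-count filter only through AAV-RBM20 libraries. They add nothing to the counts of ranges, or of an unadjusted p under 0.05, in the fits that used this filter. Any other single library left out gave 2 or 3, without a share of all genes to set beside it. The number higher in all pairs was 9 under each scaling, an alternative added after seeing the data. Leaving out a library gave log2 fold changes from -0.28 to 0.094 for Cxcl12 and from -0.16 to 1.62 for Cxcr3. The positive Cxcl12 value was without AAV-GFP replicate 2, and Cxcl12 was also positive (0.11) without both libraries numbered 2, while Cxcr3 was negative with either AAV-GFP replicate 1 (-0.02) or AAV-RBM20 replicate 3 (-0.16) left out. Counts under 10 in at least 1 library limit Ccl2, Ccl5, Ccl7, Ccl8 and Cxcl10. The cause of these moves was not tested.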
